A study of Mus musculus with 11 samples.

Results

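Aminoacyl-tRNA synthetase genes were followed by RNA sequencing in the mouse melanoma line B16F10. They were chosen by gene symbol: 36 of 36 named symbols were found among 14528 listed genes, of which 20 encode cytosolic enzymes and 16 encode mitochondrial enzymes, whose symbols end in 2. The 11 libraries came from a Cas9 control line and from ΔUNG and ΔUNG_2, each labelled as a clone with a knockout of Ung, the gene of uracil-DNA glycosylase. Each line had been exposed for 48 h to the vehicle DMSO or to 5 µM of AZD6738, called ATRi here, which inhibits the checkpoint kinase ATR. There were 2 libraries in each of the groups Cas9 control DMSO, Cas9 control ATRi, ΔUNG DMSO, ΔUNG ATRi and ΔUNG_2 DMSO, and 1 in ΔUNG_2 ATRi. All lines are B16F10 derivatives, and each knockout genotype is 1 clone, so a clone and its genotype cannot be told apart. The labels call the libraries biological replicates without saying whether cultures were grown separately, so the tests weigh differences against a spread that may be technical.

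An aminoacyl-tRNA synthetase joins an amino acid to its tRNA, the charged form that the ribosome uses. The cytosolic enzymes serve translation of nuclear-encoded messages, and several of them, among them Eprs, Mars, Qars, Rars, Kars, Iars, Lars and Dars, sit with scaffold proteins in a multi-synthetase complex. The mitochondrial enzymes are nuclear-encoded too and charge the tRNAs of the organelle; Gars and Kars supply both compartments from a single gene. Uncharged tRNA activates the kinase GCN2, which raises translation of the transcription factor ATF4, and ATF4 is known to raise many cytosolic synthetase genes together with genes of amino acid synthesis and transport.

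Libraries held 15980684 to 26861794 fragments over the listed genes. Ung had 2.48 to 2.999 FPKM in the 4 control libraries, 0.675 to 1.39 for the 4 ΔUNG libraries and 1.74 to 2.01 in the 3 ΔUNG_2 libraries. Ung RNA was thus present in all libraries, and in ΔUNG_2 it lay below every control library and above every ΔUNG library; the labels of ΔUNG_2 were kept as given, and loss of the protein was not measured. FPKM scales the fragments of a gene by its length and by the depth of the library, so levels of different genes are given per length. All 7 melanocyte lineage markers were present, with a summed level of 7220 to 9611 FPKM. Of the other markers, 1 of 5 leukocyte, 3 of 4 fibroblast, 2 of 4 epithelial and 1 of 3 endothelial ones were among the listed genes. Those listed summed to at most 1.16 FPKM for leukocyte, 1.27 for fibroblast, 0.736 for epithelial and 0.153 for endothelial markers.

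Cytosolic synthetase RNA was far more abundant than mitochondrial synthetase RNA. The mean level over the 11 libraries ran from 14.1 FPKM for Farsa, the alpha subunit of phenylalanyl-tRNA synthetase, to 213 FPKM for Gars, the glycyl-tRNA synthetase, with a median of 43.1 FPKM over the 20 cytosolic genes. The mitochondrial genes ran from 1.94 FPKM for the asparaginyl enzyme Nars2 to 84.6 FPKM for the leucyl enzyme Lars2, with a median of 3.97 FPKM. In 12 of 13 pairs that charge the same amino acid in both compartments, the cytosolic gene had the higher mean level. The ratio ran from 2.75 for Yars over Yars2 to 80.0 for Nars over Nars2. Leucine was the exception, with Lars at 0.589 times the level of Lars2. The level of Lars2 ran from 52.0 to 115 FPKM between libraries. It followed the share of the short gene Gm23935, described below, so this ratio is uncertain. The fewest fragments counted for a gene in any library were 862 among the cytosolic and 137 among the mitochondrial genes, so counting error weighs more on the mitochondrial values. All 36 genes passed the filter for testing, a mean of at least 0.5 FPKM, which left 11323 genes in all.

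**Figure D1:**
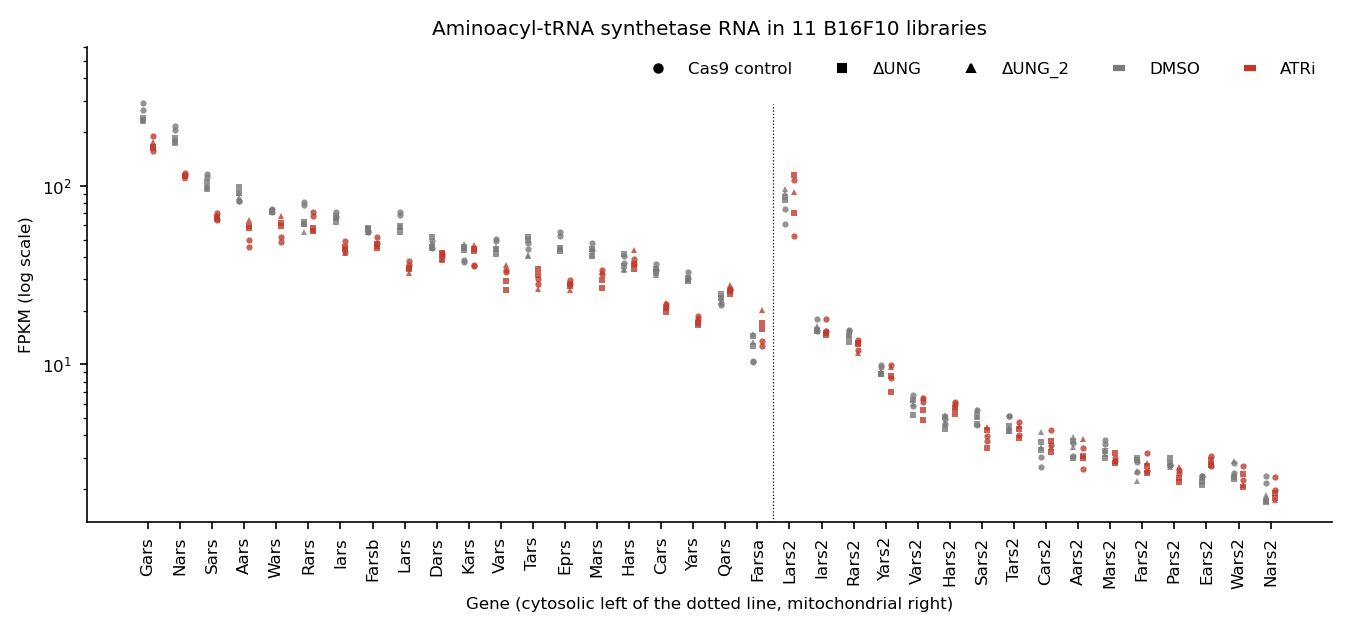
FPKM of each of the 36 synthetase genes in each of the 11 libraries on a log scale, with cytosolic genes left of the dotted line and mitochondrial genes right of it, each in order of mean level. Points are single libraries, grey for DMSO and red for ATRi, with shapes for the lines. The red points of most cytosolic genes lie below the grey ones. Mitochondrial genes other than Lars2 lie below 18 FPKM, with red and grey mixed except in Pars2, Sars2, Ears2 and Hars2.

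ATRi was compared with DMSO within each line. Most cytosolic synthetase genes were lower under ATRi in all 3 lines, and few mitochondrial ones passed the test. In the Cas9 control, 14 of 20 cytosolic genes fell, 2 rose and 4 did not pass the test, an adjusted p under 0.05 from limma on log2(FPKM + 0.5); among all genes tested, 33.6% passed, 16.8% lower and 16.8% higher. In ΔUNG 15 fell, 1 rose and 4 did not pass, where 35.8% of all genes passed, 19.4% lower and 16.5% higher. In ΔUNG_2 13 fell, 3 rose and 4 did not pass, where 35.4% of all genes passed, 17.3% lower and 18.1% higher. The median log2 fold change of the 20 cytosolic genes was -0.58, -0.56 and -0.39 in these lines, beside -0.01, -0.02 and -0.00 over all genes tested. When libraries were rescaled to the same FPKM sum, 8 instead of 16 cytosolic genes passed in ΔUNG_2, while the median of the 20 there was -0.43. In whole cultures, fewer cells with a transcript and less of it per cell cannot be told apart.

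**Figure D2:**
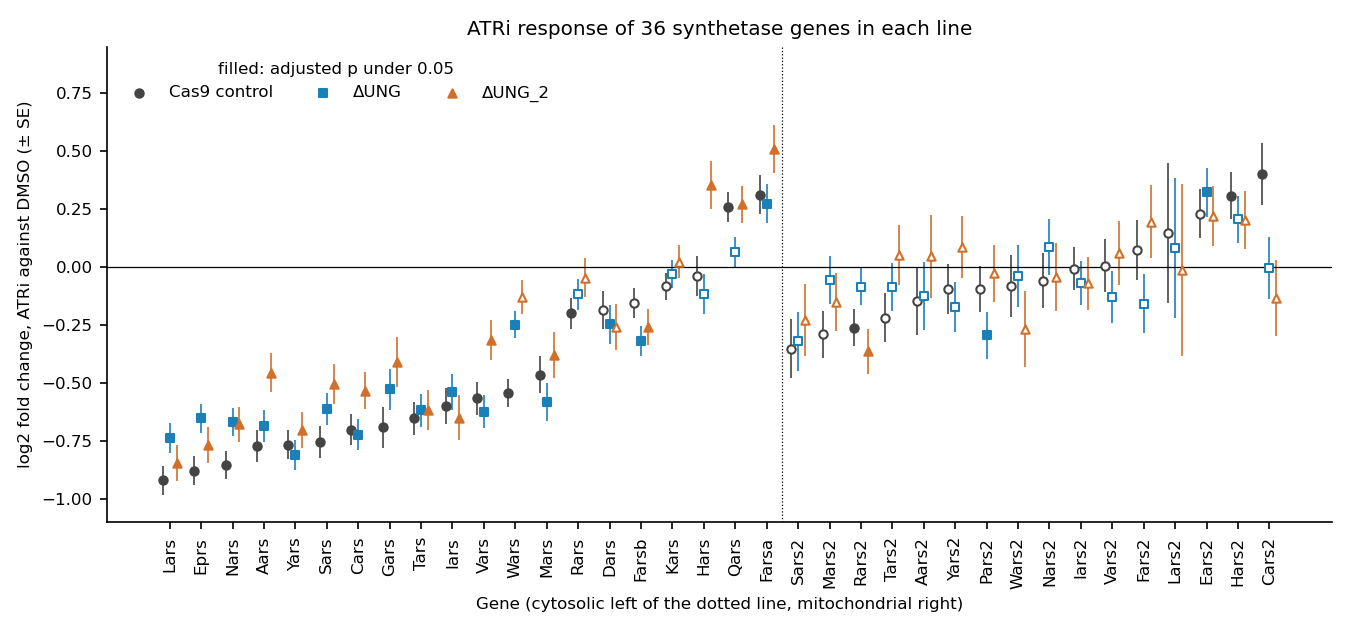
Log2 fold change of each gene under ATRi against DMSO with its standard error, in the Cas9 control (circles), ΔUNG (squares) and ΔUNG_2 (triangles); filled symbols passed an adjusted p of 0.05. Cytosolic genes are left of the dotted line, most with filled symbols below 0 in all 3 lines, and mitochondrial genes on the right are mostly open and near 0.

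The genes that fell in all 3 lines numbered 12 of 20 cytosolic and 0 of 16 mitochondrial, where 9.74% of all genes tested fell in all 3. They were Aars, Cars, Eprs, Gars, Iars, Lars, Mars, Nars, Sars, Tars, Vars and Yars, the enzymes for alanine, cysteine, glutamate with proline, glycine, isoleucine, leucine, methionine, asparagine, serine, threonine, valine and tyrosine. Without the single ΔUNG_2 ATRi library there is no ΔUNG_2 response to test. With any 1 other library left out, Aars, Cars, Eprs, Iars, Lars, Nars, Sars, Tars and Yars passed in all 3 lines. The calls of Gars, Mars and Vars in ΔUNG_2 were lost without ΔUNG_2 DMSO replicate 1 (log2 fold changes of -0.42, -0.325 and -0.33). Those of Gars and Vars were lost also without replicate 2 (-0.39 and -0.30). In 15 of 20 cytosolic genes every one of the 5 ATRi libraries lay below every one of the 6 DMSO libraries, a pattern held by 15.8% of all genes tested; besides the 12 these were Dars, Farsb and Wars. The summed level of the 20 genes was 1297 to 1480 FPKM in the DMSO libraries and 942 to 1009 FPKM in the ATRi libraries.

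Lars, the leucyl-tRNA synthetase that also senses leucine for the growth kinase mTORC1, had 68.8 and 71.4 FPKM in control DMSO and 37.8 and 35.9 in control ATRi. It had 55.2 and 59.7 FPKM in ΔUNG DMSO against 34.0 and 34.6 in ΔUNG ATRi, and 58.6 and 59.1 FPKM in ΔUNG_2 DMSO against 32.6 in ΔUNG_2 ATRi. The 5 ATRi values were all below the lowest DMSO value. Lars had log2 fold changes of -0.92 ± 0.06 (SE), -0.74 ± 0.06 and -0.84 ± 0.08 in the control, ΔUNG and ΔUNG_2, with limma adjusted p = 1.41e-05, 3.35e-05 and 7.01e-05.

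Eprs, which joins both glutamate and proline to their tRNAs, had 55.0 and 52.2 FPKM in control DMSO against 29.8 and 28.2 under ATRi. In ΔUNG it had 43.0 and 44.9 FPKM against 27.4 and 28.2, and in ΔUNG_2 44.1 and 45.2 FPKM against 26.0. The treatments did not overlap, and the clones started lower than the control under DMSO. Log2 fold changes of Eprs were -0.88 ± 0.06, -0.65 ± 0.06 and -0.77 ± 0.08 (limma adjusted p = 1.75e-05, 5.91e-05 and 0.000109).

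Nars, the asparaginyl-tRNA synthetase and the second most abundant of the 20, had 205 and 216 FPKM in control DMSO against 115 and 117 under ATRi. It had 176 and 184 FPKM against 113 and 113 in ΔUNG, and 175 and 180 FPKM against 111 in ΔUNG_2. All ATRi libraries lay close together and below all DMSO libraries. Nars changed by -0.85 ± 0.06, -0.67 ± 0.06 and -0.68 ± 0.07 on the log2 scale (limma adjusted p = 1.79e-05, 4.70e-05 and 0.000184).

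Yars, the tyrosyl-tRNA synthetase, had 30.4 and 32.7 FPKM in control DMSO against 18.7 and 18.0 under ATRi. It had 30.4 and 29.3 FPKM against 17.0 and 16.6 in ΔUNG, and 29.8 and 30.2 FPKM against 18.2 in ΔUNG_2. The DMSO values of ΔUNG overlapped those of the other lines, control DMSO lay just above ΔUNG_2 DMSO, and every DMSO value was above every ATRi value. Yars had log2 fold changes of -0.76 ± 0.06, -0.81 ± 0.06 and -0.70 ± 0.08 (limma adjusted p = 3.97e-05, 2.30e-05 and 0.000201).

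Cars, the cysteinyl-tRNA synthetase, had 33.6 and 36.5 FPKM in control DMSO against 21.7 and 21.0 under ATRi, 33.0 and 34.2 FPKM against 20.7 and 19.7 in ΔUNG, and 31.6 and 32.5 FPKM against 22.02 in ΔUNG_2. Again the treatments did not overlap. Cars had log2 fold changes of -0.70 ± 0.07, -0.72 ± 0.07 and -0.53 ± 0.08 (limma adjusted p = 7.31e-05, 4.84e-05 and 0.00115). Gars, with the highest level of all 36 genes, had 267 and 291 FPKM in control DMSO against 189 and 158 under ATRi, 239 and 234 FPKM against 163 and 165 in ΔUNG, and 230 and 235 FPKM against 175 in ΔUNG_2. The ATRi libraries of Gars were all below the DMSO libraries, and its log2 fold changes were -0.69 ± 0.09, -0.53 ± 0.09 and -0.41 ± 0.11 (limma adjusted p = 0.000402, 0.00159 and 0.0170); the ΔUNG_2 value did not pass without either DMSO replicate of that clone (-0.42 and -0.39, adjusted p = 0.0550 and 0.0706).

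**Figure D3:**
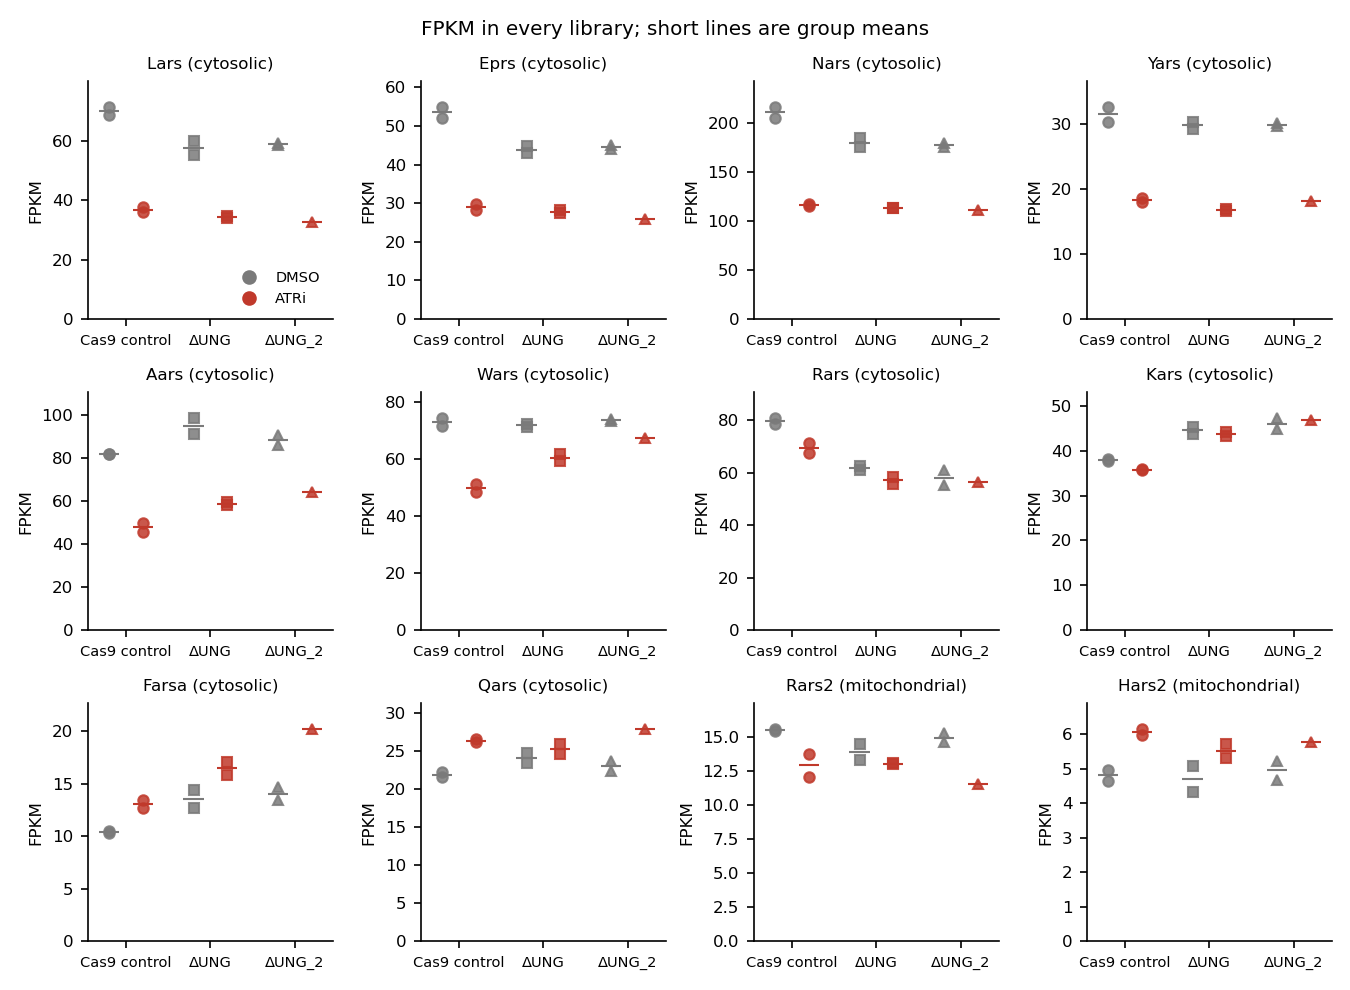
FPKM of 12 synthetase genes in every library, with DMSO in grey and ATRi in red, 1 panel per gene and each axis starting at 0; short lines are group means, and ΔUNG_2 ATRi is 1 library. Lars, Eprs, Nars, Yars and Aars show red points below all grey points, Farsa shows higher red points within each line, and Rars and Kars differ more between the control and the clones than between treatments.

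Cytosolic genes outside this pattern included the subunits of phenylalanyl-tRNA synthetase, which went in opposite directions. Farsa, the alpha subunit, rose in all 3 lines, as did 9.80% of all genes tested. It had 10.5 and 10.3 FPKM in control DMSO against 13.4 and 12.7 under ATRi, 12.7 and 14.4 FPKM against 17.1 and 15.8 in ΔUNG, and 14.7 and 13.4 FPKM against 20.2 in ΔUNG_2. Within each line the ATRi values were the higher ones, while across lines the control ATRi libraries overlapped the DMSO libraries of the clones. The log2 fold changes of Farsa were 0.31 ± 0.08, 0.27 ± 0.08 and 0.51 ± 0.10 (limma adjusted p = 0.0190, 0.0313 and 0.00488). The control call was lost without control ATRi replicate 1 (0.27, adjusted p = 0.0845) or either control DMSO replicate (0.32 and 0.30, adjusted p = 0.0724 and 0.0913), and the ΔUNG call without ΔUNG ATRi replicate 1 or 2 (0.22 and 0.33, adjusted p = 0.151 and 0.0542) or ΔUNG DMSO replicate 1 (0.18, adjusted p = 0.162). Farsb, the beta subunit, had log2 fold changes of -0.15 ± 0.06, -0.32 ± 0.06 and -0.26 ± 0.08 (limma adjusted p = 0.0924, 0.00440 and 0.0297). The control value of Farsb passed without control ATRi replicate 1 (-0.22, adjusted p = 0.0489), and the ΔUNG_2 value did not pass without either ΔUNG_2 DMSO replicate (-0.26 in both, adjusted p = 0.101 and 0.104) or either control DMSO replicate (adjusted p = 0.0505 and 0.0504).

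Qars, the glutaminyl-tRNA synthetase, had 21.6 and 22.2 FPKM in control DMSO against 26.5 and 26.1 under ATRi, and 22.3 and 23.7 FPKM against 27.9 in ΔUNG_2. It rose in these lines by 0.26 ± 0.06 and 0.27 ± 0.08 on the log2 scale (limma adjusted p = 0.0132 and 0.0254), and had 0.07 ± 0.06 in ΔUNG (adjusted p = 0.453). Without control DMSO replicate 1 or 2 the control call of Qars was lost (0.24 and 0.28, adjusted p = 0.0797 and 0.0546), and so was the ΔUNG_2 call without ΔUNG_2 DMSO replicate 1 (0.23, adjusted p = 0.128). Kars, the lysyl-tRNA synthetase, passed in no line, with log2 fold changes of -0.08 ± 0.06, -0.03 ± 0.06 and 0.02 ± 0.07 (limma adjusted p = 0.314, 0.732 and 0.817). Hars, the histidyl enzyme, passed in ΔUNG_2 only, at 0.36 ± 0.10 (adjusted p = 0.0258; 0.0785 and 0.0864 without ΔUNG_2 DMSO replicate 1 or 2), and had -0.04 ± 0.09 in the control and -0.12 ± 0.09 in ΔUNG; its reads can be shared with Hars2, which overlaps it on the opposite strand. Rars, the arginyl enzyme, had -0.20 ± 0.07 in the control (adjusted p = 0.0480, lost without 10 of the 11 libraries in turn, with adjusted p from 0.0508 to 0.203; the exception was the ΔUNG_2 ATRi library), -0.12 ± 0.07 in ΔUNG and -0.04 ± 0.08 in ΔUNG_2. Dars, the aspartyl enzyme, had -0.18 ± 0.08, -0.25 ± 0.08 and -0.26 ± 0.10, of which the ΔUNG value passed (adjusted p = 0.0426); it was lost without ΔUNG ATRi replicate 1 or 2 (adjusted p = 0.0609 and 0.202), ΔUNG DMSO replicate 2 (0.228) or either ΔUNG_2 DMSO replicate (0.0608 in both).

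Cytosolic synthetase genes that are widely described as raised by ATF4 number 12 here: Aars, Cars, Eprs, Gars, Iars, Lars, Mars, Nars, Sars, Tars, Wars and Yars. This list was drawn up with earlier results of these data known. Its contrast with the other cytosolic genes is therefore not independent of their values. All 12 fell under ATRi in the control and in ΔUNG and 11 of 12 in ΔUNG_2, where Wars did not pass, with median log2 fold changes of -0.73, -0.63 and -0.57. Of the 8 other cytosolic genes, 2 fell and 2 rose in the control, 3 fell and 1 rose in ΔUNG, and 2 fell and 3 rose in ΔUNG_2, with medians of -0.12, -0.12 and -0.01. Vars, the valyl enzyme, was the member of these 8 that fell in all 3 lines, at -0.57 ± 0.07, -0.62 ± 0.07 and -0.31 ± 0.09 (limma adjusted p = 0.000364, 0.000170 and 0.0201, the last lost without ΔUNG_2 DMSO replicate 1 or 2, at 0.0612 and 0.0849). Grouped by assembly, 5, 5 and 4 of the 8 complex enzymes fell in the control, ΔUNG and ΔUNG_2, with medians of -0.33, -0.39 and -0.32. Of the 12 free enzymes, 9, 10 and 9 fell, with medians of -0.67, -0.61 and -0.43. By structural class, 9, 8 and 7 of the 10 cytosolic class I genes and 5, 7 and 6 of the 10 cytosolic class II genes fell. Over all genes tested, 16.8%, 19.4% and 17.3% fell in these lines. The complex scaffold genes Aimp1, Aimp2 and Eef1e1 passed in no line, with log2 fold changes between -0.12 and 0.18.

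The ATF4 pathway outside the synthetases moved mostly in the same direction. Of 24 such genes, 21, 19 and 18 fell in the control, ΔUNG and ΔUNG_2, while 0, 1 and 1 rose, with medians of -0.99, -0.90 and -0.80. Over all genes tested, 16.8%, 19.4% and 17.3% fell and 16.8%, 16.5% and 18.1% rose. This list too was drawn up with earlier results known, and the genes named below are all ones that fell. Atf4 itself had 253 and 266 FPKM in control DMSO against 144 and 164 under ATRi, 275 and 244 FPKM against 172 and 166 in ΔUNG, and 238 and 240 FPKM against 159 in ΔUNG_2. Its 5 ATRi values were below all 6 DMSO values, with log2 fold changes of -0.75 ± 0.08, -0.62 ± 0.08 and -0.58 ± 0.10 (limma adjusted p = 0.000201, 0.000523 and 0.00255). Asns, the asparagine synthetase of amino acid metabolism and a well-known ATF4 target, fell, with log2 fold changes of -1.05, -0.95 and -0.96 (limma adjusted p = 2.34e-05, 2.90e-05 and 0.000117). Nupr1, a stress-induced chromatin protein, fell with log2 fold changes of -2.58, -2.99 and -2.77 (limma adjusted p = 1.84e-06, 3.16e-07 and 2.53e-06), and Aldh1l2, a mitochondrial folate enzyme, at -1.91, -1.71 and -2.18. Psph, the last enzyme of serine synthesis, fell too, at -1.47, -1.42 and -1.69, as did Mthfd2, which also acts in mitochondrial folate metabolism, at -1.16, -0.90 and -0.79. Ddit3, the stress factor CHOP, named here for its place, fell with values of -0.90, -0.80 and -0.81. Ddit3 lies over Mars, the methionyl-tRNA synthetase, on the opposite strand, and whether fragments were counted by strand is not stated in the sources used here, so their reads may be shared; Mars had -0.46 ± 0.08, -0.58 ± 0.08 and -0.38 ± 0.10 (limma adjusted p = 0.00227, 0.000546 and 0.0159, the last 0.0813 without ΔUNG_2 DMSO replicate 1).

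Promoters of the members were read from RefSeq (GRCm38.p6), as windows of 250 bases before to 50 after a listed start. That start is not always the outer end of the gene, and the Tars2 window (chromosome 3, 95754928 to 95755227) lies inside the gene. The windows were searched on both strands for TGATGNAA, the core of the composite element bound by ATF4 with C/EBP proteins. It was present in 5 of the 8 ATF4-list genes with an entry, among them Gars, Iars, Tars and Yars, in 0 of 5 other cytosolic genes and in 0 of 14 mitochondrial genes. Of all 32851 promoters, 3.97% held it. A match lay upstream of the start in 3 of the 8 ATF4-list genes, Gars and Tars among them, and in 3.45% of all promoters. In Iars and Yars it lay after the start. The ATF4 list was drawn up with earlier results known, from genes described as raised by ATF4, so this contrast is not independent. The Gars and Tars sites are shown because these genes fell under ATRi in all 3 lines. Each window is written along the gene, with the match, here on the opposite strand, in capitals.
Gars, chr6:55037959-55037990, plus strand, match 30 bases before the start: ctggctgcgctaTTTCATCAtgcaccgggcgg
Tars, chr15:11399659-11399685, minus strand, match 15 bases before the start: ccaggagtcccgTTGCATCAgctggtt
Gars fell with log2 fold changes of -0.69, -0.53 and -0.41, and Tars, the threonyl enzyme, with -0.65, -0.62 and -0.61. Aars, the alanyl enzyme, fell with -0.77, -0.68 and -0.46. Eprs, at -0.88 in the control, has an entry with no match in its window, and binding was not measured.

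Among genes that act beside the synthetases, Xpot, the nuclear export receptor for tRNA, fell in all 3 lines, with log2 fold changes of -0.75, -0.46 and -0.58 (limma adjusted p = 8.52e-05, 0.00107 and 0.00116). Trnt1, which adds the CCA end to tRNAs, fell with -0.24, -0.25 and -0.39 (adjusted p = 0.0217, 0.0151 and 0.00518). These were the 2 of 6 tested genes of tRNA export, maturation and proofreading that passed in any line, a share near that of all genes (33.6%, 35.8% and 35.4%). The Trnt1 call was lost in the control without control ATRi replicate 1 or control DMSO replicate 1 or 2 (adjusted p = 0.0835, 0.0650 and 0.127), and in ΔUNG without ΔUNG ATRi replicate 1 or ΔUNG DMSO replicate 2 (0.0785 and 0.0801). Of the 5 cytosolic elongation factor genes, Eef2, which moves the ribosome along the message, rose by 0.29 ± 0.09, 0.36 ± 0.09 and 0.61 ± 0.11 (limma adjusted p = 0.0340, 0.0129 and 0.00284). The control call of Eef2 was lost without any 1 of the control libraries or either ΔUNG_2 DMSO library (adjusted p from 0.0508 to 0.160), and its ΔUNG call without ΔUNG ATRi replicate 1 or 2 or ΔUNG DMSO replicate 2 (0.0546, 0.0520 and 0.0732). Eef1g fell in ΔUNG, at -0.30 ± 0.08 (limma adjusted p = 0.0136; 0.0933 and 0.0686 without ΔUNG ATRi replicate 2 or ΔUNG DMSO replicate 2), and Eef1d rose in ΔUNG_2, at 0.27 ± 0.08 (adjusted p = 0.0253; 0.0506 and 0.127 without ΔUNG_2 DMSO replicate 1 or 2). In the control 1 of the 5 rose, in ΔUNG 1 rose and 1 fell, and in ΔUNG_2 2 rose. Of all genes tested, 16.8%, 16.5% and 18.1% rose and 16.8%, 19.4% and 17.3% fell in these lines, so the 5 genes lie near these shares.

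Few mitochondrial synthetase genes passed the test under ATRi. In the control 2 of 16 rose, 1 fell and 13 did not pass; in ΔUNG 1 rose, 1 fell and 14 did not pass; in ΔUNG_2 1 fell and 15 did not pass. These shares lie below the 33.6%, 35.8% and 35.4% of all genes tested. The median log2 fold changes of the 16 genes were -0.07, -0.08 and -0.02, and replicates of mitochondrial genes spread more widely, with a median within-group SD per gene of 0.108 on the log2 scale against 0.0588 for cytosolic genes. The standard error of the control response was 0.0802 to 0.302 for mitochondrial and 0.0587 to 0.0882 for cytosolic genes, so a change of the same size passed less readily in a mitochondrial gene. Without Lars2, the mitochondrial genes summed to 79.6 to 86.0 FPKM in the DMSO libraries and 74.3 to 81.9 FPKM in the ATRi libraries. No mitochondrial gene passed in the same direction in all 3 lines. Pars2 and Sars2 were lower in all 5 ATRi libraries than in all 6 DMSO libraries, and Ears2 and Hars2 were higher, where 15.8% and 14.8% of all genes tested held these patterns.

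Rars2, the mitochondrial arginyl-tRNA synthetase, had 15.4 and 15.6 FPKM in control DMSO against 12.1 and 13.7 under ATRi, 13.3 and 14.5 FPKM against 13.0 and 13.1 in ΔUNG, and 14.6 and 15.3 FPKM against 11.5 in ΔUNG_2. Its ATRi values were lower within each line, and control ATRi replicate 2 overlapped the DMSO values of ΔUNG. Rars2 had log2 fold changes of -0.26 ± 0.08, -0.08 ± 0.08 and -0.36 ± 0.10 (limma adjusted p = 0.0331, 0.445 and 0.0184). The control call was lost without control ATRi replicate 1 (-0.17, adjusted p = 0.176), either control DMSO replicate (adjusted p = 0.110 and 0.131) or either ΔUNG_2 DMSO replicate (0.0525 in both), and the ΔUNG_2 call without ΔUNG_2 DMSO replicate 2 (-0.33, adjusted p = 0.0849).

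Hars2, the mitochondrial histidyl enzyme, had 4.64 and 4.96 FPKM in control DMSO against 5.99 and 6.15 under ATRi, 4.33 and 5.08 FPKM against 5.70 and 5.29 in ΔUNG, and 5.22 and 4.68 FPKM against 5.77 in ΔUNG_2. All ATRi values were above all DMSO values. Hars2 had log2 fold changes of 0.31 ± 0.10, 0.21 ± 0.10 and 0.20 ± 0.12 (limma adjusted p = 0.0407, 0.140 and 0.230). The control call was lost without any 1 of the 4 control libraries (adjusted p from 0.0932 to 0.177) or either ΔUNG_2 DMSO library (0.0535 and 0.0531). Hars2 overlaps Hars, which had about 7.14 times its level, on the opposite strand.

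Cars2, the mitochondrial cysteinyl enzyme, had 3.01 and 2.65 FPKM in control DMSO against 4.28 and 3.54 under ATRi, 3.64 and 3.29 FPKM against 3.72 and 3.20 in ΔUNG, and 4.19 and 3.44 FPKM against 3.42 in ΔUNG_2. The control treatments did not overlap, while the clones' did in ΔUNG and were in the other order in ΔUNG_2. Its log2 fold changes were 0.40 ± 0.13, -0.00 ± 0.13 and -0.13 ± 0.16 (limma adjusted p = 0.0442, 0.989 and 0.565), and the control call was lost without control ATRi replicate 1 (0.28, adjusted p = 0.217), either control DMSO replicate (0.48 and 0.33, adjusted p = 0.0757 and 0.208) or either ΔUNG DMSO replicate (adjusted p = 0.0523 and 0.0520). The difference in response between ΔUNG_2 and the control was -0.54 ± 0.21 (limma adjusted p = 0.351).

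Ears2, the mitochondrial glutamyl enzyme, had 2.37 and 2.35 FPKM in control DMSO against 3.05 and 2.68 under ATRi, 2.18 and 2.11 FPKM against 2.90 and 2.72 in ΔUNG, and 2.32 and 2.37 FPKM against 2.81 in ΔUNG_2. No ATRi value overlapped a DMSO value. Ears2 had log2 fold changes of 0.23 ± 0.11, 0.32 ± 0.11 and 0.22 ± 0.13, of which the ΔUNG value passed (limma adjusted p = 0.0390, against 0.122 and 0.216). That call was lost without any 1 of the 4 ΔUNG libraries (adjusted p from 0.0784 to 0.148), either control DMSO replicate (0.0586 in both) or either ΔUNG_2 DMSO replicate (0.0619 and 0.0620).

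Pars2, the mitochondrial prolyl enzyme, had 2.72 and 2.71 FPKM in control DMSO against 2.57 and 2.46 under ATRi, 2.79 and 2.96 FPKM against 2.19 and 2.31 in ΔUNG, and 2.74 and 2.66 FPKM against 2.64 in ΔUNG_2. The treatments did not overlap, by a narrow margin in ΔUNG_2. The log2 fold changes were -0.09 ± 0.10, -0.29 ± 0.10 and -0.03 ± 0.12, of which the ΔUNG value passed (limma adjusted p = 0.0442, against 0.505 and 0.888). It was lost without any 1 of the 10 libraries other than the ΔUNG_2 ATRi library (adjusted p from 0.0518 to 0.162).

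Of 8 mitochondrial translation factor genes, 1, 0 and 3 passed in the control, ΔUNG and ΔUNG_2, where 33.6%, 35.8% and 35.4% of all genes did, with median log2 fold changes of 0.02, -0.07 and -0.01. Of the 3 subunit genes of the amidotransferase that makes mitochondrial glutaminyl-tRNA, Qrsl1 fell in ΔUNG and ΔUNG_2, at -0.46 and -0.55 (limma adjusted p = 0.0102 and 0.0109). These Qrsl1 calls were lost without ΔUNG ATRi replicate 1 or ΔUNG DMSO replicate 2 (adjusted p = 0.0597 and 0.0725) and without ΔUNG_2 DMSO replicate 1 (0.0584).

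The ATRi responses of the 3 lines share no library and could be set beside each other. Across the 20 cytosolic genes, the log2 fold changes of any 2 lines had a Pearson r of 0.926 to 0.941 and a Spearman rho of 0.893 to 0.923. Across the 16 mitochondrial genes r was 0.369 to 0.638 and rho was 0.103 to 0.576, lowest between the 2 clones. Genes are not independent replicates, and the mitochondrial responses were smaller, with an SD over genes of 0.167 to 0.216 against 0.309 to 0.383 for the cytosolic ones, at lower counts.

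Whether a clone responded to ATRi differently from the control was tested as the difference in response. Of the 36 genes, 0 passed in either clone with limma, where 0.0177% of all genes passed in ΔUNG and 0.0707% in ΔUNG_2. Limma-voom on fragments gave 0 of the 36 past the adjusted threshold as well. At an unadjusted limma p under 0.05 there were 1524 of all 11323 genes tested in ΔUNG and 1396 in ΔUNG_2. Among the 36 there were 2 cytosolic and 0 mitochondrial genes in ΔUNG and 4 and 1 in ΔUNG_2. Wars, the tryptophanyl-tRNA synthetase, which interferon is known to induce, had the smallest p in both. It had 74.5 and 71.6 FPKM in control DMSO against 51.4 and 48.6 under ATRi, 72.5 and 71.3 FPKM against 61.6 and 59.4 in ΔUNG, and 73.5 and 74.0 FPKM against 67.4 in ΔUNG_2. Under DMSO the control values overlapped those of both clones, with ΔUNG_2 just above ΔUNG, while under ATRi the control was lowest and the ΔUNG_2 library highest. Wars had log2 fold changes of -0.54 ± 0.06, -0.25 ± 0.06 and -0.13 ± 0.07 (limma adjusted p = 0.000166, 0.0105 and 0.199; the ΔUNG value was -0.22, adjusted p = 0.0633, without ΔUNG ATRi replicate 2). The difference in response was 0.30 ± 0.08 in ΔUNG and 0.41 ± 0.09 in ΔUNG_2 (limma adjusted p = 0.213 and 0.163).

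Wars2, its mitochondrial counterpart, had 2.79 and 2.46 FPKM in control DMSO against 2.68 and 2.24 under ATRi, 2.32 and 2.28 FPKM against 2.04 and 2.44 in ΔUNG, and 2.43 and 2.86 FPKM against 2.11 in ΔUNG_2. Treatments overlapped in the control and ΔUNG, and no comparison passed. Its differences in response were 0.04 ± 0.19 and -0.19 ± 0.21. Next after Wars among the cytosolic genes, the differences with the smallest p were those of Aars and Hars in ΔUNG_2, 0.32 ± 0.11 and 0.39 ± 0.13 (limma adjusted p = 0.296 and 0.294), and of Eprs in ΔUNG, 0.22 ± 0.09 (limma adjusted p = 0.318).

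The clones were then compared with the control under each treatment; both clones share the control libraries, so their values are given side by side only. Under DMSO, 3 of 20 cytosolic genes were lower and 2 higher in ΔUNG, where 8.72% of all genes passed, 3.25% lower and 5.47% higher. In ΔUNG_2 4 were lower and 2 higher, where 8.20% passed, 3.73% lower and 4.47% higher. Under ATRi, 1 was lower and 3 higher in ΔUNG, where 6.14% passed, 3.13% lower and 3.01% higher, and 0 were lower and 4 higher in ΔUNG_2, where 5.01% passed, 2.27% lower and 2.74% higher. No mitochondrial gene passed in these 4 comparisons with limma or with limma-voom, and at most 1 had an unadjusted p under 0.05 in any of them. Of all 11323 genes tested, 2440 to 2706 had such a p. Rescaling to the same FPKM sum moved the median of all genes to -0.11 in ΔUNG and -0.13 in ΔUNG_2 under DMSO and left 0 and 1 cytosolic genes past the threshold there, and 0 and 0 under ATRi.

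Rars (chromosome 11, 35808381 to 35834506) stood at 78.5 and 81.0 FPKM for the control with DMSO, 61.3 and 62.7 for ΔUNG and 61.0 and 55.4 for ΔUNG_2. With ATRi it stood at 71.4 and 67.5 FPKM for the control, 55.9 and 58.4 for ΔUNG and 56.4 for ΔUNG_2. Both clones lay below the control under each treatment. The log2 fold changes under DMSO were -0.36 ± 0.07 in ΔUNG and -0.45 ± 0.07 in ΔUNG_2 (limma adjusted p = 0.0121 and 0.00389), and under ATRi -0.28 ± 0.07 and -0.30 ± 0.08 (0.0423 and 0.0728). The ΔUNG call under DMSO was lost without control DMSO replicate 1 or 2 (adjusted p = 0.0625 and 0.0888) or ΔUNG DMSO replicate 1 (0.0532), and the ΔUNG_2 call without ΔUNG_2 DMSO replicate 2 (-0.38, adjusted p = 0.0535). The ΔUNG call under ATRi was lost without any 1 of the 8 libraries other than the ΔUNG DMSO pair and the ΔUNG_2 ATRi library (adjusted p from 0.0590 to 0.163).

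Lars and Eprs were also lower in both clones under DMSO, with the values given above. Lars had log2 fold changes of -0.28 ± 0.06 in ΔUNG and -0.25 ± 0.06 in ΔUNG_2 (limma adjusted p = 0.0245 and 0.0427), and Eprs had -0.28 ± 0.06 and -0.26 ± 0.06 (0.0235 and 0.0337). Nars was lower in ΔUNG_2, at -0.25 ± 0.06 (limma adjusted p = 0.0389), and had -0.23 ± 0.06 in ΔUNG (adjusted p = 0.0507). Each of these calls was lost without either control DMSO replicate: adjusted p was 0.0988 and 0.154 for Lars and 0.165 and 0.0770 for Eprs in ΔUNG, and 0.137 and 0.231 for Lars, 0.212 and 0.103 for Eprs and 0.108 and 0.241 for Nars in ΔUNG_2. They were lost too without either DMSO replicate of the clone (adjusted p from 0.0521 to 0.234), except Lars in ΔUNG without ΔUNG DMSO replicate 2. Under DMSO in ΔUNG the calls of Lars and Eprs were further lost without either ΔUNG_2 DMSO replicate (0.0514 to 0.0537), and in ΔUNG_2 those of Lars and Nars without either ΔUNG ATRi replicate (0.0558 to 0.0597).

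The synthetase genes that were higher in a clone lie in 2 parts of the genome. Farsa (chromosome 8, 84856989 to 84869257), Aars (chromosome 8, 111033144 to 111057664) and Kars (chromosome 8, 111993443 to 112011323) are the 3 members on chromosome 8 beyond 80 Mb, and Wars (108860030 to 108894174) is the member on chromosome 12. All 332 genes tested on chromosome 8 from 80 Mb had median log2 fold changes of 0.35 in ΔUNG and 0.34 in ΔUNG_2 against the control under DMSO and 0.32 and 0.40 under ATRi. The 436 genes on chromosome 12 had medians of 0.24, 0.23, 0.24 and 0.21. Wars itself lay below the medians under DMSO, at -0.02 in ΔUNG and 0.02 in ΔUNG_2. The 10555 genes elsewhere had medians between -0.03 and -0.01. The boundary at 80 Mb was chosen with earlier results of these data known, and the DNA copy number of the clones was not measured here.

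Farsa, with the values given above, was higher under DMSO in ΔUNG (0.36 ± 0.08, limma adjusted p = 0.0300) and ΔUNG_2 (0.42 ± 0.08, adjusted p = 0.0169) and under ATRi in ΔUNG_2 (0.61 ± 0.10, adjusted p = 0.0113); under ATRi in ΔUNG it had 0.32 ± 0.08 (adjusted p = 0.0564, and 0.0426 or 0.0428 without ΔUNG DMSO replicate 1 or 2). Without control DMSO replicate 1 or 2 the Farsa calls under DMSO were lost (adjusted p = 0.130 and 0.143 in ΔUNG, 0.0872 and 0.102 in ΔUNG_2), as they were without ΔUNG DMSO replicate 2 (0.134) and without ΔUNG_2 DMSO replicate 1 or 2 (0.142 and 0.0563). With DMSO, Kars stood at 37.6 and 38.2 FPKM for the control, 43.8 and 45.4 for ΔUNG and 44.7 and 47.3 for ΔUNG_2. With ATRi it stood at 35.7 and 35.9 FPKM for the control, 44.1 and 43.2 for ΔUNG and 46.8 for ΔUNG_2, so that every clone library was above every control library. Its log2 fold changes were 0.23 ± 0.06 and 0.28 ± 0.06 under DMSO (limma adjusted p = 0.0414 and 0.0202) and 0.28 ± 0.06 and 0.38 ± 0.07 under ATRi (0.0225 and 0.0183). Leaving out any 1 DMSO library of the control or the clone ended the Kars calls under DMSO (adjusted p from 0.0738 to 0.201), and the ΔUNG one also without either ΔUNG_2 DMSO or ΔUNG ATRi replicate (0.0569 to 0.0740). Under ATRi they were lost in ΔUNG without either ATRi replicate of the control or of ΔUNG (0.0586 to 0.1), and in ΔUNG_2 without control ATRi replicate 1 (0.0556).

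With DMSO, Aars stood at 82.1 and 81.9 FPKM for the control, 98.6 and 91.0 for ΔUNG and 86.1 and 90.7 for ΔUNG_2. With ATRi its level was 50.0 and 45.7 FPKM for the control, 58.2 and 59.5 for ΔUNG and 64.3 for ΔUNG_2. The clones lay above the control under each treatment. Aars passed under ATRi, at 0.30 ± 0.07 in ΔUNG and 0.42 ± 0.08 in ΔUNG_2 (limma adjusted p = 0.0363 and 0.0226), and had 0.21 ± 0.07 and 0.11 ± 0.07 under DMSO (0.1 and 0.414). Wars passed under ATRi too, at 0.27 ± 0.06 and 0.43 ± 0.07 (limma adjusted p = 0.0282 and 0.0114), and had -0.02 ± 0.06 and 0.02 ± 0.06 under DMSO. In ΔUNG both ATRi calls were lost without control ATRi replicate 2 (0.23 for both genes, adjusted p = 0.122 for Aars and 0.0918 for Wars), either ΔUNG ATRi replicate (0.0944 to 0.177 for Aars, 0.0990 to 0.111 for Wars), either control DMSO replicate or either ΔUNG_2 DMSO replicate (0.0520 to 0.0673 over both genes).

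**Figure D4:**
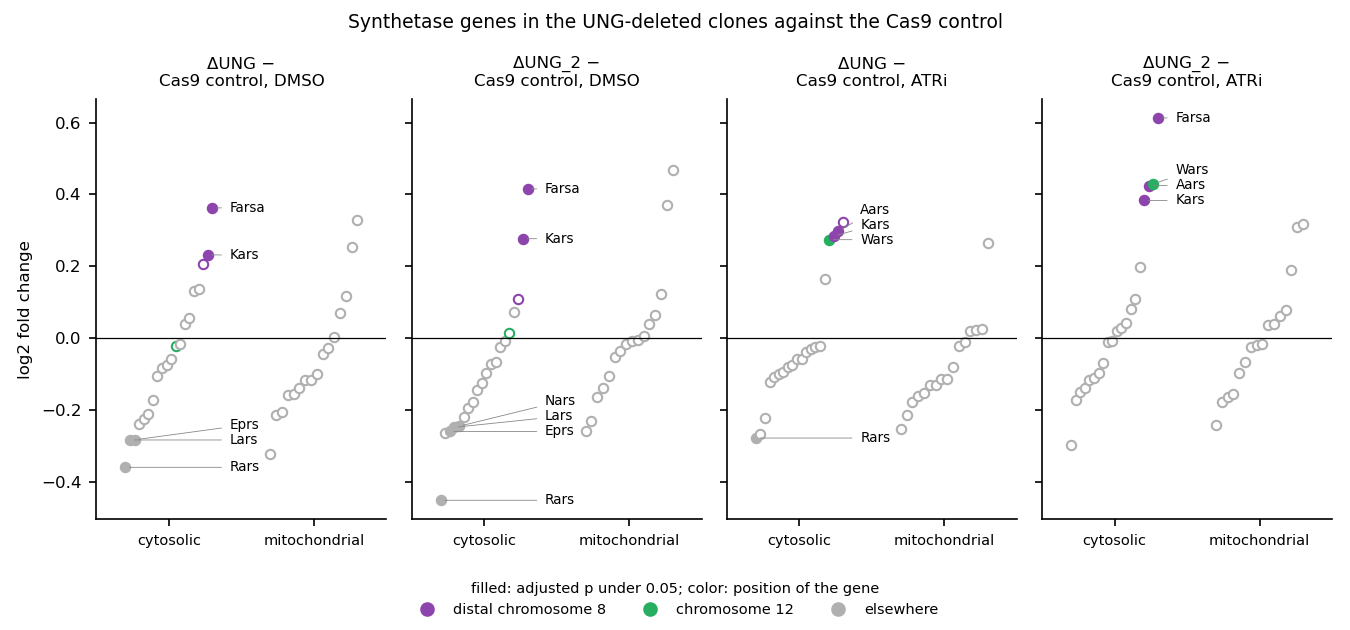
Log2 fold change of the 36 genes in each clone against the Cas9 control, under DMSO (left pair) and ATRi (right pair), with cytosolic and mitochondrial genes side by side and in order of their value. Filled points passed an adjusted p of 0.05 and are named; purple marks the 3 genes on distal chromosome 8 and green the 1 on chromosome 12, which include every named point above 0, while the named points below 0 are grey, as genes elsewhere are.

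Set directly against each other under DMSO, ΔUNG_2 and ΔUNG differed in 0 of the 36 genes with limma and with limma-voom, where 0.0442% of all genes passed. One cytosolic gene had an unadjusted p under 0.05: Tars, chosen here after its value was seen, had 44.2 and 48.1 FPKM for the control, 51.4 and 49.6 for ΔUNG and 40.6 and 40.8 for ΔUNG_2, a difference between the clones of -0.31 ± 0.07 (limma adjusted p = 0.379).

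Lars2 (chromosome 9, 123366927 to 123462666) varied more between libraries than the other mitochondrial genes. With DMSO it stood at 74.1 and 61.5 FPKM for the control, 82.8 and 87.1 for ΔUNG and 96.2 and 91.0 for ΔUNG_2. With ATRi it stood at 52.0 and 107 FPKM for the control, 115 and 70.3 for ΔUNG and 92.8 for ΔUNG_2, so replicates of 1 group lay farther apart than the groups did. Its log2 fold changes under ATRi were 0.15 ± 0.30, 0.08 ± 0.30 and -0.01 ± 0.37, none of which passed; the sign changed in the control without control ATRi replicate 2 (-0.37) and in ΔUNG without ΔUNG ATRi replicate 1 (-0.27). At the low end, Nars2 had 2.37 and 2.16 FPKM in control DMSO against 2.34 and 1.98 under ATRi, 1.70 and 1.72 FPKM against 1.78 and 1.91 for ΔUNG, and 1.78 and 1.84 FPKM against 1.74 for ΔUNG_2. The control libraries of Nars2 lay above all clone libraries, and the largest of its differences, -0.32 ± 0.12 in ΔUNG under DMSO, did not pass (limma adjusted p = 0.135).

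The level of Lars2 followed the share of the FPKM sum taken by the short gene Gm23935, which was 10.3% to 26.3% of a library. Over the 11 libraries Pearson's r was 0.949 (permutation p = 2e-05, 0.00072 adjusted over 36 genes by the Benjamini-Hochberg method) and Spearman's rho was 0.955 (permutation p = 9e-05, adjusted 0.00324). The permutations treated the 11 libraries as exchangeable and ignored their 6 groups, so the p-values may be too small. The adjustment covers the 36 genes and not the choice of Gm23935. Without the 2 libraries farthest from the median share, r was 0.917. Within groups, the library with the larger Gm23935 share had the larger Lars2 level in 4 of the 5 groups with 2 libraries. What the relation comes from was not tested.

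**Figure D5:**
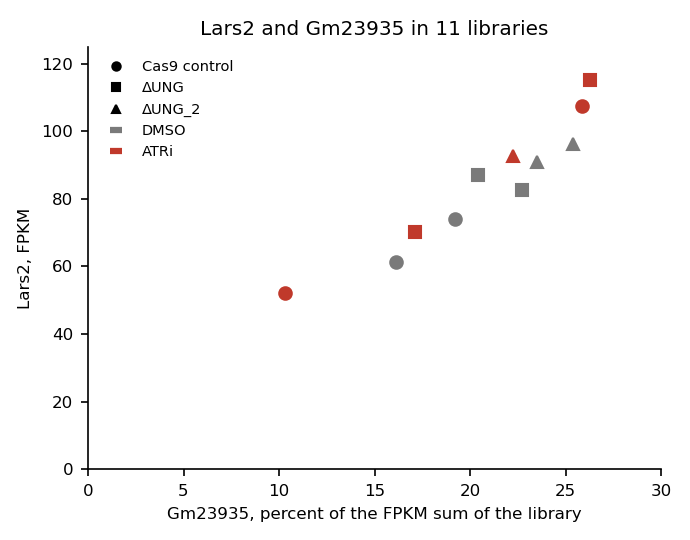
Level of Lars2 in FPKM against the percent of each library's FPKM sum taken by Gm23935, 1 point per library, grey for DMSO and red for ATRi, with shapes for the lines. Lars2 runs from 52.0 FPKM at the lowest share to 115 FPKM at the highest, and both treatments lie along the same rise.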

How the data were processed

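RNA was sequenced in 11 libraries of 6 groups, taken from the sample titles. The authors deposited expression as FPKM for each gene. HISAT2 is named per the submitters' processing notes; not given in the sources used here are its version, the counter, the annotation, the genome build and the use of strand. Coordinates are those of the deposited table; 33 of the 36 synthetase genes and 13994 of 14528 listed genes have the same ones in GENCODE M21 (GRCm38). The deposited read table gives the count of clean reads, 45692790 to 74973328 per library, with the percent of bases at Q30 and of G and C; 1 library in that table is not among the samples and was not used. Multiplying FPKM by gene length gave whole multiples of 1 unit in each library (tolerance 0.01) for 100% of values, and so whole fragments. A value of 0 allows up to 3 fragments, 0.105 to 0.176 FPKM for a gene of 1 kb, counting error only.

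The 11323 genes whose mean reached 0.5 FPKM were tested as log2(FPKM + 0.5) with limma 3.58.1 under R 4.3.3, with 6 group means over 11 libraries, 5 residual degrees of freedom, empirical Bayes moderation with an intensity trend, two-sided, Benjamini-Hochberg adjustment over all genes tested in a comparison and a threshold of 0.05. Fold changes are on that scale, which understates those of low genes, and are given with standard errors. The fit assumes that the single ΔUNG_2 ATRi library varies as the other groups do. Replicates differed by more than counting noise (chi-square over degrees of freedom, 4.73 to 27.6), and none was counted as a duplicate. The fit was also run on simulated fragments with the same relative spread for every gene. That run does not show how the fit behaves with the spread of these data. Genes with values in every library are, per ATRi comparison, the 3 largest changes that passed in each compartment; per comparison of clones, up to 2 rises and 2 falls; Wars and Wars2; and the highest and lowest gene of each compartment. Qars and the other genes with values beyond these, and Tars, were added after their values were seen. From lists outside the 36, at most 4 genes with the smallest adjusted p are named, besides Atf4, Asns, Xpot, Aimp1, Aimp2 and Eef1e1; Ddit3 was added for its overlap with Mars, after its values were seen. A gene of these lists and a promoter site are not reported here. The genes and lists were chosen with earlier results of these data known. Alternatives were pseudocounts of 0.1 and 1, filters, rescalings, no trend, only the groups compared, a replicate block, limma-voom and leaving out each library. Chosen after the data had been seen were rescaling without Gm23935 and crossed replicate numbers. Figures were drawn with matplotlib 3.10.9.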

Additional observations from a re-analysis of the deposited data

Results flagged for a closer look

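In 3 mitochondrial genes, every ΔUNG library moved under ATRi in one direction and the single ΔUNG_2 library in the other, a pattern held by 3 of 16 mitochondrial genes, 0 of 20 cytosolic genes and 6.18% of all genes tested. It rests on 1 ΔUNG_2 ATRi library; the difference between the clones was not tested, and none of these responses passed in its own line. Fars2, the mitochondrial phenylalanyl enzyme, had a log2 fold change of -0.16 in ΔUNG and 0.20 in ΔUNG_2. Yars2, the mitochondrial tyrosyl enzyme, had -0.17 in ΔUNG and 0.087 in ΔUNG_2. Nars2 had 0.086 in ΔUNG and -0.043 in ΔUNG_2.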

How the results depend on the processing

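Counts of cytosolic genes that passed under ATRi stayed within 1.5 times 16 in the control and in ΔUNG under all settings run. In ΔUNG_2 the same FPKM sum gave 8 instead of 16. With each library left out in turn these counts ran from 13 to 16 in the control, from 13 to 16 in ΔUNG and from 10 to 16 in ΔUNG_2. No comparison that uses ΔUNG_2 ATRi could be run without its only library. The mitochondrial counts under ATRi rest on few genes. In the control, 3 became 5 with limma-voom, 1 with no filter, 0 with only the groups compared and 0 with the same FPKM sum. In ΔUNG, 2 became 1 with a filter at 2 FPKM, with median ratios, with the replicate block and with the same sum without Gm23935, and 0 with limma-voom, with only the groups compared and with the same sum. In ΔUNG_2, 1 became 0 with the same sum. Left-out libraries gave 0 to 4 in the control, 0 to 2 in ΔUNG and 0 to 1 in ΔUNG_2.

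Cytosolic counts of clones against the control changed as well. Under DMSO, 5 in ΔUNG became 1 with no intensity trend, 1 with only the groups compared and 0 with the same sum, and 6 in ΔUNG_2 became 2 with no trend, 3 with the replicate block and 1 with the same sum. Under ATRi, 4 in ΔUNG became 0 with no trend, with only the groups compared and with the same sum, and 2 with the replicate block and with the same sum without Gm23935; 4 in ΔUNG_2 became 2 with no trend and 0 with only the groups compared and with the same sum. Left-out libraries gave 0 to 7 in each clone under DMSO, and 0 to 5 and 3 to 4 under ATRi. With only the groups compared, 1 mitochondrial gene passed in ΔUNG_2 under DMSO. The causes were not tested.

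Replicate numbers did not pair the libraries: replicate differences of 2 groups correlated at -0.124 to 0.0436 across genes. Crossing the numbers of ΔUNG ATRi gave 3 cytosolic and 0 mitochondrial calls against the control.

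Signs changed only for values that had not passed. In ΔUNG, Eef1e1 under ATRi was 0.00046 with median ratios. In ΔUNG_2, Aimp2 became -0.016 with limma-voom, -0.0087 with the same sum and -0.049 with the same sum without Gm23935, and Kars became -0.019, -0.015 and -0.056. Against the control under DMSO, ΔUNG_2 with the same sum had -0.026 for Aars and -0.12 for Wars. With left-out libraries, the ATRi response in the control ran from -0.068 to 0.23 for Eef1e1, from -0.10 to 0.028 for Hars, from -0.37 to 0.67 for Lars2 and from -0.19 to 0.028 for Wars2. In ΔUNG it ran from -0.024 to 0.25 for Aimp2, from -0.11 to 0.065 for Eef1e1, from -0.27 to 0.44 for Lars2 and from -0.14 to 0.068 for Wars2. In ΔUNG_2 it ran from -0.24 to 0.0037 for Eef1e1, from -0.015 to 0.065 for Kars, from -0.050 to 0.028 for Lars2 and from -0.11 to 0.025 for Rars. Wars against the control under DMSO ran from -0.050 to 0.0064 in ΔUNG and from -0.013 to 0.043 in ΔUNG_2.

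Standard errors rest on 5 residual degrees of freedom, and ΔUNG_2 ATRi has no replicate. Overlapping genes limit Mars with Ddit3, Hars with Hars2, Cars2 with Naxd, Ears2 with Ubfd1, Iars2 with Rab3gap2, Yars with C77080 and Wars with Wdr25.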
